A study of Mus musculus with 4 samples.

Results

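The 45 genes described here encode transcription factors that mark regions of the developing and adult hypothalamus. They were taken by gene symbol from the 33696 genes of the deposited tables, and all 45 were found. They were read in neurons, defined as nuclei with 3 or more unique molecular identifiers (UMIs, 1 per captured RNA molecule) of Snhg11, a long non-coding RNA abundant in neurons. By role they were set in 9 groups. The mammillary and posterior group holds Lhx1, Lhx5, Foxb1, Sim2, Lmx1a, Lmx1b, Barhl1, Barhl2 and Foxa1. The paraventricular group holds Sim1, Otp and Pou3f2, and the ventromedial group Nr5a1 and Fezf1. The tuberal and arcuate group holds Nkx2-1, Nkx2-2, Nkx2-4, Isl1, Tbx3 and Bsx, and the anterior and suprachiasmatic group Six3, Six6, Rorb and Zic1. The Dlx and Lhx group holds Dlx1, Dlx2, Dlx5, Dlx6, Lhx6 and Lhx8, and a further group Lhx9, Ebf1, Ebf2, Ebf3, Onecut1, Onecut2 and Onecut3. Tcf7l2 and Lef1, effectors of Wnt signalling, were grouped with Prox1, and Foxp1, Foxp2, Meis1, Meis2 and Pbx3 formed the last group.

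Nuclei came from the hypothalamus of conventional, wild-type C57BL/6J mice labelled SPF, and the labels give no age. Of the 4 libraries, ImP 3 and ImP 4 came from mice given imidazole propionate (ImP), a histidine product of gut bacteria, at 350 µg per day for 2 weeks by an osmotic pump implanted intraperitoneally. The other 2, vehicle 1 and vehicle 2, came from vehicle mice, and ImP was diluted in water with 1% DMSO. Whether a library is 1 animal or a pool is not stated in the labels, and p-values speak only for these libraries. They come from fits to UMIs summed over nuclei, in which the spread of a gene is estimated partly from other genes. Very small values therefore do not measure the spread between 4 libraries alone.

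ImP 3 and ImP 4 gave 10423 and 11094 neurons, against 7896 and 9426 in vehicle 1 and vehicle 2, 38839 in all. The median neuron held 3361 and 3266 UMIs in ImP 3 and ImP 4, against 4442.5 and 3709 in vehicle 1 and vehicle 2, from 48060194 to 51945297 UMIs per library. Pairs of libraries shared 39 to 76 barcodes. The Snhg11 rule let some glia through: oligodendrocyte-marker nuclei made up 2.38% to 3.75% of the neurons, and 64.4% to 75.8% of the oligodendrocyte-marker nuclei outside the rule also had a Snhg11 UMI. Rbfox3, which encodes the neuronal antigen NeuN, had a UMI in 37.6% to 47.6% of the neurons and in 1.14% to 2.28% of those oligodendrocyte nuclei. A neuron met a marker list of another region with 2 or more of its genes and 3 or more UMIs, members left out. By this rule 0 neurons in each library met the cortical or habenular list, though UMIs of both lists were found. The thalamic list was met by 29 to 54 neurons and the hippocampal list, of 3 genes, by 5.05% to 8.98%. ImP 4 stood apart in the 8 pituitary markers, which summed to 2348 CPM (UMIs of a gene scaled to counts-per-million of all neuronal UMIs) in its neurons, against 31.2 CPM in ImP 3, 28.8 in vehicle 1 and 8.23 in vehicle 2. Counted as for the lists above, 9393 of the 11094 neurons in ImP 4 (84.7%) met the pituitary list. The numbers were 6 in ImP 3, 7 in vehicle 1 and 2 in vehicle 2. A stricter rule asked for a clear lead over other marker classes and left out the hormone genes Gh and Prl. By it, 129 neurons of ImP 4 were pituitary-marker nuclei, and there were none in the other libraries.

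As background, the hypothalamus is built from domains that each express their own transcription factors, many of them homeodomain, LIM-homeodomain, bHLH-PAS or forkhead proteins. Sim1 and Otp are needed for the neuroendocrine neurons of the paraventricular and supraoptic nuclei, Nr5a1 (SF-1) for the ventromedial nucleus, and Nkx2-1 for the ventral hypothalamus, while Dlx factors promote GABAergic fate in the forebrain. Glutamatergic neurons of the hypothalamus load vesicles with the transporter encoded by Slc17a6. GABAergic neurons make GABA with the enzymes encoded by Gad1 and Gad2 and load it with that encoded by Slc32a1.

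The promoters of Sim1 and Otp, both paraventricular factors, and of Dlx1 and Dlx2, neighbours on chromosome 2, are shown because these pairs are among those found together more often than expected in the results. Each run covers 250 bases before to 50 after the RefSeq start on GRCm38.p6, read 5′ to 3′ along the gene. Capitals mark ATTA on either strand, with overlapping matches merged, a core that many homeodomain proteins bind. The windows are Sim1 at chr10:50895401-50895700 on the plus strand, Otp at chr13:94875386-94875685 on the plus strand, Dlx1 at chr2:71529195-71529494 on the plus strand and Dlx2 at chr2:71546705-71547004 on the minus strand.
Sim1: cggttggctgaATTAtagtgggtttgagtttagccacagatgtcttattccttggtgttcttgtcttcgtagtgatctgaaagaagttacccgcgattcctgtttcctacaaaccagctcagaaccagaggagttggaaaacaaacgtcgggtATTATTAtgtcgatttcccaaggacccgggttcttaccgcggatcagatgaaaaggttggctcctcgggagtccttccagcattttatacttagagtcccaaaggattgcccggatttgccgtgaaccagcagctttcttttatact
Otp: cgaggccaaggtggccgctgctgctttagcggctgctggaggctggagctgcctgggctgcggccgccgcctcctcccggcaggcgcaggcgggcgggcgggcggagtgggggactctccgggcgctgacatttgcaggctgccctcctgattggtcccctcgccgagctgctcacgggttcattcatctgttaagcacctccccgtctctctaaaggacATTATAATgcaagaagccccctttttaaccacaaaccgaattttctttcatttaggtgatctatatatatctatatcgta
Dlx1: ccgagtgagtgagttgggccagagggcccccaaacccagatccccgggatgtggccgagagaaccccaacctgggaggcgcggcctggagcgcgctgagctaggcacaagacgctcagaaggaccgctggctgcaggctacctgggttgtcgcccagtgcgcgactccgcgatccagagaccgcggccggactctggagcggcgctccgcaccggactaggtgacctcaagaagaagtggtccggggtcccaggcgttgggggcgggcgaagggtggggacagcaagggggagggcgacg
Dlx2: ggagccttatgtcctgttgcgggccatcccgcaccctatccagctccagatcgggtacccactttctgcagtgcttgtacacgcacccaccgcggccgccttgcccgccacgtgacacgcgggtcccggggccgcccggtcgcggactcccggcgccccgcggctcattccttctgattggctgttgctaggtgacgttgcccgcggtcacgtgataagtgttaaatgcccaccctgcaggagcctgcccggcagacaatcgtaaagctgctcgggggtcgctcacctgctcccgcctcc
Sim1 had 3 matches and Otp 2, while Dlx1 and Dlx2 had 0. Of 32851 windows in all, 58.0% held the core, and 23 of the 45 windows found for 33 members did, or 51.1%. G and C made up 46.0% of the Sim1 window and 58.7% of the Otp window, against 69.3% for Dlx1 and 66.3% for Dlx2.

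The members were found in very different shares of neurons. Foxp1, a forkhead repressor, had a UMI in 56.3% ± 3.77 of neurons (mean ± SD over 4 libraries, as in all shares given so), Rorb, an orphan nuclear receptor, in 31.7% ± 1.33, Pbx3 in 24.8% ± 1.37 and Foxp2 in 14.2% ± 1.7. Sim1, the paraventricular bHLH-PAS factor, followed with 11.7% and 10.1% in ImP 3 and ImP 4, against 12.1% and 12.7% in vehicle 1 and vehicle 2. Isl1, a LIM-homeodomain factor of arcuate neurons, was found in 8.79% and 10.5% in ImP 3 and ImP 4, against 11.5% and 10.7% in vehicle 1 and vehicle 2. Ebf1 reached 7.88% ± 0.63, Nkx2-1 5.18% ± 0.679, Six3 4.77% ± 0.436 and Otp 3.09% ± 0.352. At the low end, Barhl1 was found in 0.115% ± 0.0346 of neurons, Foxa1 in 0.232% ± 0.109, Bsx in 0.438% ± 0.0562, Sim2 in 0.589% ± 0.138 and Nr5a1 in 0.666% ± 0.209. A median neuron carried 2 members in ImP 3, ImP 4 and vehicle 2 and 3 in vehicle 1. Neurons with no member made up 8.84% in ImP 3 and 8.96% in ImP 4, against 5.89% in vehicle 1 and 7.54% in vehicle 2. Thinned to 2000 UMIs per neuron, the same share was 16.3% and 15.9% in ImP 3 and ImP 4, against 16.8% and 16.7% in vehicle 1 and vehicle 2, and the median was 2 in all 4. Thinning left out 1859 and 2111 shallower neurons in ImP 3 and ImP 4, against 732 and 1399 in vehicle 1 and vehicle 2. Thinned shares of the abundant members were 38.3% for Foxp1, 23.5% for Rorb and 8.17% for Sim1.

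Most members were far rarer in oligodendrocyte-marker nuclei outside the neuron rule, whose median depth of 1308 to 1441 UMIs was below that of neurons. Sim1 was found in 11.6% of neurons and 0.397% of oligodendrocyte-marker nuclei, Lmx1a in 2.71% and 0.0814%, Ebf1 in 7.88% and 0.364%, and Rorb in 31.7% and 2.92%. By contrast, 4 members ran the other way in all 4 libraries: Prox1 was found in 6.96% of neurons and 20.5% of oligodendrocyte-marker nuclei, Meis1 in 3.71% and 15.7%, Tcf7l2 in 7.91% and 11.3%, and Nkx2-2, a factor of the oligodendrocyte lineage, in 1.18% and 2.74%. Onecut2 was at 9.39% and 10.4% and ran that way in 2 libraries. For these 5 genes a neuron with a single UMI cannot be told from the level in glia by its share alone.

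Per UMI, Prox1, Meis1, Tcf7l2, Onecut2 and Nkx2-2 were also higher in oligodendrocyte-marker nuclei outside the neuron rule. Other classes held further members above their neuronal level, among them Rorb and Ebf1, which were rare in oligodendrocyte-marker nuclei. In oligodendrocyte-marker nuclei (3318 in all) Prox1 averaged 170 CPM against 22.1 CPM in neurons, Meis1 121 against 12.8, Tcf7l2 169 against 36.7, Onecut2 83.4 against 32.6, and Nkx2-2 19.2 against 3.14. Each of these was higher in the glial nuclei in all 4 libraries. Astrocyte-marker nuclei (2181) held Rorb at 1055 CPM against 239 CPM in neurons, Tcf7l2 at 563 against 36.7, Meis1 at 203 against 12.8, Pou3f2 at 67.7 against 12.8 and Foxb1, known from mammillary neurons, at 8.66 against 2.04. Tanycyte-marker nuclei, the ventricular glia of the tuberal hypothalamus, numbered 82 and rested on 10 to 13 UMIs for each of Nkx2-4, Tbx3 and Six3. Their levels there were 77.2, 81.2 and 63.3 CPM, against 2.97, 3.76 and 13.2 CPM in neurons. Endothelial-marker nuclei (33) held Lef1 at 1695 CPM against 15.2 CPM in neurons and Ebf1 at 2032 against 83.2. The heat map by nucleus class sets these members beside the others with 10 or more UMIs in a class.

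**Figure D1:**
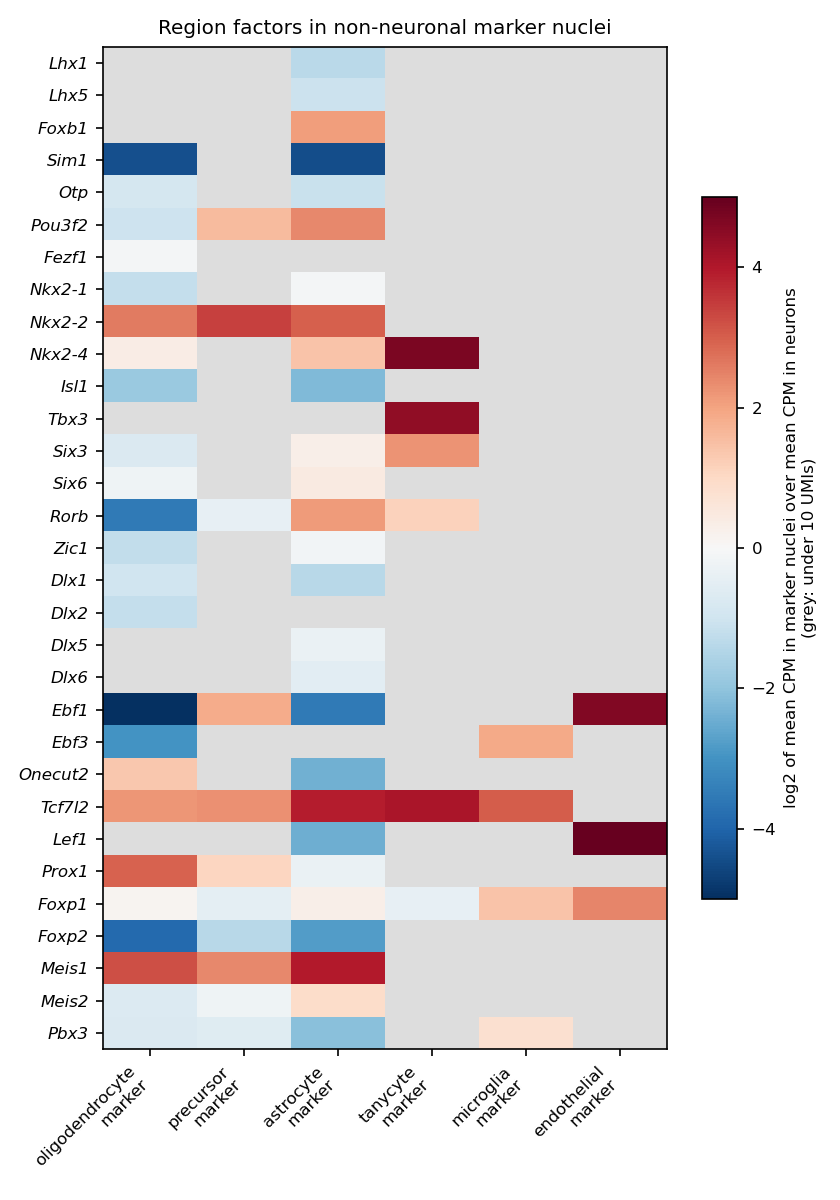
Region factors (rows) in nuclei outside the neuron rule that carry markers of 6 non-neuronal classes (columns); colour is log2 of the mean CPM over 4 libraries in those nuclei over the mean CPM in neurons, and grey marks under 10 UMIs. Tcf7l2 is above its neuronal level in oligodendrocyte, precursor, astrocyte, tanycyte and microglia nuclei, while Lef1 and Ebf1 are highest in the 33 endothelial nuclei.

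Neurons with a given factor leaned to glutamate or to GABA. A neuron was called glutamatergic when its Slc17a6 UMIs were at least 2 times the sum of Gad1, Gad2 and Slc32a1, and GABAergic in the reverse case. Of all neurons so called, the glutamatergic share was 35.0% in ImP 3 and 31.9% in ImP 4, against 38.4% in vehicle 1 and 34.3% in vehicle 2. These shares leave out neurons with no UMI of these genes, 31.2% to 36.9% of all neurons over the libraries. They also leave out those with both kinds and a smaller lead, 3.94% to 4.60%. Among positive neurons of the members, the mean share with no such UMI ran from 17.6% for Lhx8 to 45.8% for Nkx2-2. The share was above that of all neurons in 4 of 4 libraries for 21 of the 45 members and below it in 4 of 4 for 17. With 4 libraries an exact paired permutation test cannot give a p below 1 in 8, so these shares carry no p.

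The most glutamatergic members were posterior and paraventricular. Lmx1b, a LIM-homeodomain factor, had 70.1% and 87.8% glutamatergic neurons in ImP 3 and ImP 4, against 83.1% and 83.3% in vehicle 1 and vehicle 2. Lmx1a, its paralog, had 77.0% and 73.6% in ImP 3 and ImP 4, against 81.0% and 84.4% in vehicle 1 and vehicle 2. Sim1 had 71.7% and 74.8% in ImP 3 and ImP 4, against 81.8% and 79.7% in vehicle 1 and vehicle 2. All these values lay more than 30 percentage points above the share in all neurons of the same library. Ebf2 (74.9% ± 2.76), Ebf3 (74.4% ± 7.85) and the ventromedial Nr5a1 (74.3% ± 5.79) came next, followed by Foxb1 (68.9% ± 6.39), Lhx9 (66.6% ± 5.35), Sim2 (65.8% ± 5.05) and Fezf1 (64.4% ± 6.65). The neighbours in this order did not differ beyond their spread. Otp, often paired with Sim1, stood at 47.1% ± 6.19, apart from Sim1 (77.0% ± 4.6) by more than the spread of either.

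The most GABAergic members were the Dlx and LIM factors Lhx6 and Lhx8, which mark GABAergic neurons derived from the ventral forebrain. Lhx8 had 6.58% and 7.89% glutamatergic neurons in ImP 3 and ImP 4, against 0% and 3.17% in vehicle 1 and vehicle 2. Lhx6 had 8.82% and 0% in ImP 3 and ImP 4, against 6.67% and 2.99% in vehicle 1 and vehicle 2. These shares rested on 13 glutamatergic and 242 GABAergic neurons for Lhx8 and on 12 and 257 for Lhx6, over all 4 libraries. Dlx5 (7.21% ± 0.889), Dlx2 (7.74% ± 1.3), Dlx1 (8.14% ± 2.23) and Dlx6 (10.6% ± 3.49) lay close together, with overlapping ranges. Six6 (13.4% ± 3.05), Isl1 (15.4% ± 1.5), Lef1 (17.4% ± 5.3), Tbx3 (19.8% ± 7.45), Meis2 (19.9% ± 1.09) and Six3 (22.1% ± 3.44) followed. Rorb (31.1% ± 4.31) and Pbx3 (32.2% ± 2.48) were below all neurons in 4 of 4 libraries, with mean differences of -3.84 and -2.70 percentage points. Foxp1, Tcf7l2, Onecut3, Onecut1, Bsx, Nkx2-4 and Barhl1 were on both sides.

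**Figure D2:**
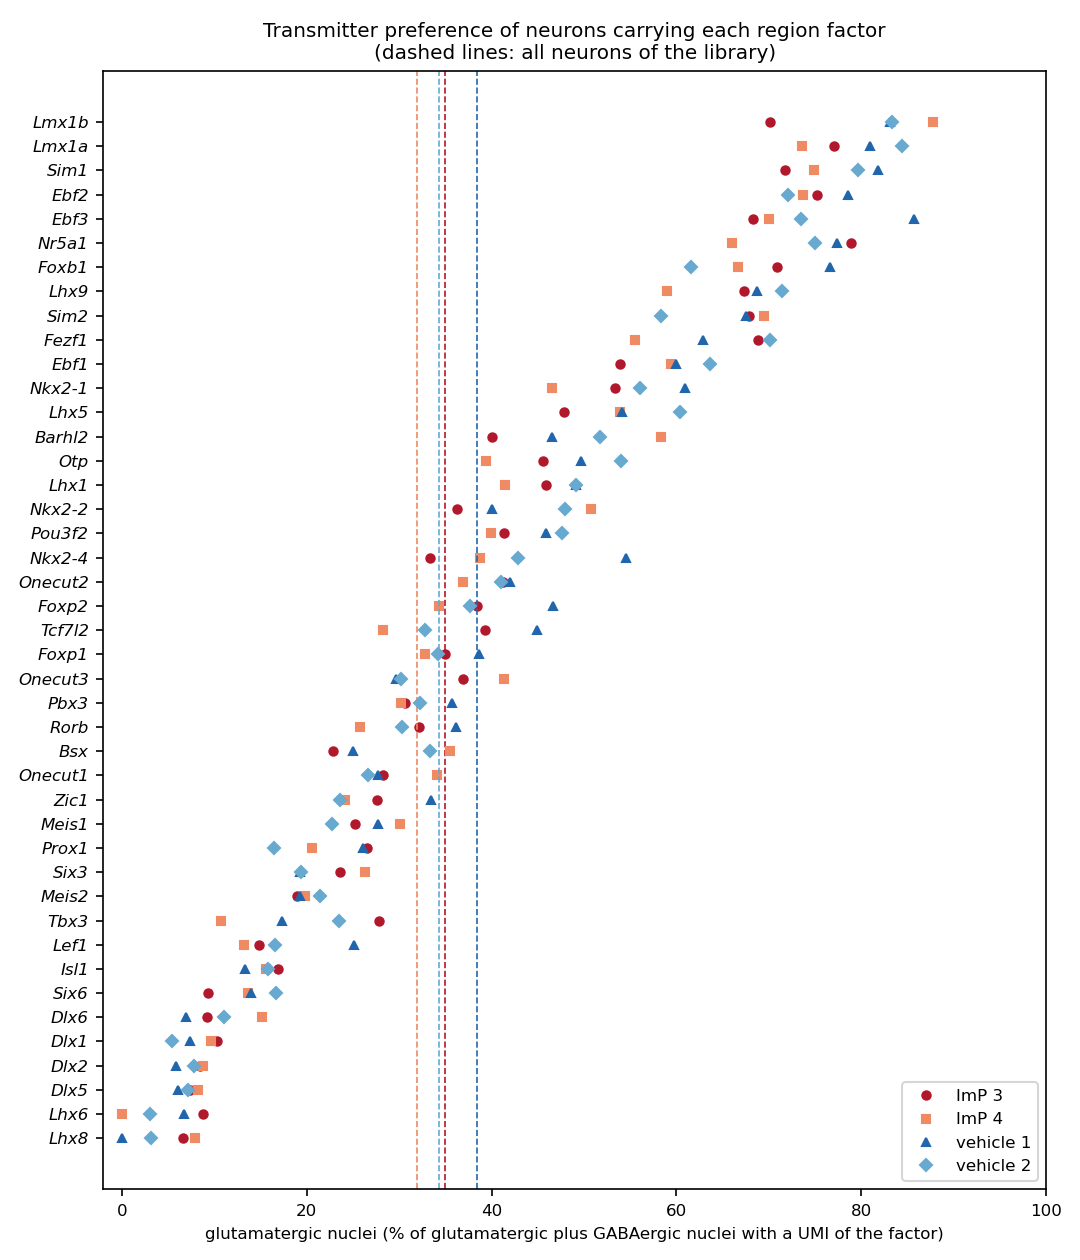
Glutamatergic share (x axis, %) of the glutamatergic and GABAergic neurons with a UMI of each factor (rows, factors with 100 or more such neurons), 1 point per library; dashed lines mark all neurons of each library. Lmx1b, Lmx1a and Sim1 lie between 70.1% and 87.8% in all 4 libraries, and Lhx8 and Lhx6 at or under 8.82%.

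The transmitter genes were then tested across all genes. For each of the 39 members with 50 or more positive neurons in every library, UMIs were summed over positive and over negative neurons of each library and compared with edgeR's quasi-likelihood test, with library as a block and Benjamini-Hochberg adjustment over all genes of the fit. Slc17a6 was higher in positive neurons for 15 members and lower for 17. Over all genes of the 39 fits together, 4.08% were higher and 4.78% lower. Gad1 was higher for 14 and lower for 16, Gad2 higher for 15 and lower for 19, and Slc32a1 higher for 6 and lower for 15. With positive neurons defined by 2 or more UMIs, Slc17a6 was higher for 9 members and Slc32a1 for 1. Positive neurons of most members were deeper. Sim1-positive neurons, for instance, had median depths of 4153 to 5330.5 UMIs over the libraries, while all neurons had 3266 to 4442.5. Among neurons at or over the median UMIs, Slc17a6 was higher for 14 members and lower for 14. Slc32a1 was higher there for 6 and lower for 14. Depth was not matched further, and its part in these differences was not tested.

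In 15 fits Slc17a6 rose and at least 1 GABA gene fell: Ebf1, Ebf2, Ebf3, Fezf1, Foxb1, Foxp2, Lhx1, Lhx5, Lhx9, Lmx1a, Lmx1b, Nkx2-1, Onecut2, Sim1 and Sim2. Foxp2 was marginal: its Slc17a6 call was lost under 9 of 15 alternative settings, with log2 ratios of 0.0418 to 0.165. Sim2 lost its call under 4, with log2 ratios of 0.188 to 0.639. Slc17a6 in Sim1-positive neurons was at 168 and 182 CPM in ImP 3 and ImP 4 and 177 and 180 CPM in vehicle 1 and vehicle 2. In Sim1-negative neurons it was at 97.5 and 94.95 CPM in ImP 3 and ImP 4 and 95.7 and 87.6 CPM in vehicle 1 and vehicle 2. Every positive value was above every negative value, with a log2 ratio of 0.97 ± 0.04 (SE) and an adjusted p of 3.92e-23 by edgeR. In the same neurons Gad1 fell by 2.10, Gad2 by 1.81 and Slc32a1 by 1.52 on the log2 scale. In Lmx1a-positive neurons Slc17a6 averaged 178 ± 14.3 CPM against 103 ± 2.14 CPM in Lmx1a-negative neurons (SD, n = 4 libraries), and Gad1 fell by 1.99. Lmx1b-positive neurons showed the largest drop of Gad1, with a log2 ratio of -2.27 ± 0.21 and an adjusted p of 4.15e-24 by edgeR.

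In 17 fits Slc17a6 fell and at least 1 GABA gene rose: Dlx1, Dlx2, Dlx5, Dlx6, Isl1, Lef1, Lhx6, Meis1, Meis2, Onecut1, Pbx3, Prox1, Rorb, Six3, Six6, Tbx3 and Zic1. Onecut1 was marginal: its Slc17a6 call was lost under 10 of 15 alternative settings, with log2 ratios of -0.343 to -0.117. Meis1, also found in glia, lost its call under 3, with log2 ratios of -0.396 to -0.00326. Zic1 and Six6 lost theirs under 2 each. In Lhx6-positive neurons Slc17a6 was at 46.4 and 17.9 CPM in ImP 3 and ImP 4 and 44.4 and 19.2 CPM in vehicle 1 and vehicle 2. In Lhx6-negative neurons it was at 103 to 108 CPM, so the groups did not overlap, and the log2 ratio was -1.72 ± 0.16 (edgeR, adjusted p = 9.25e-24). Dlx5-positive neurons had Slc32a1 at 81.5 and 71.9 CPM in ImP 3 and ImP 4 and 75.6 and 65.2 CPM in vehicle 1 and vehicle 2. The Dlx5-negative neurons held 39.4 and 48.1 CPM in ImP 3 and ImP 4 and 38.3 and 44.3 CPM in vehicle 1 and vehicle 2, and the log2 ratio was 0.75 ± 0.11 (edgeR, adjusted p = 8.69e-10). Dlx2 (0.74), Meis2 (0.63), Dlx6 (0.50), Dlx1 (0.50) and Isl1 (0.25) completed the members whose positive neurons had more Slc32a1.

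In the other 11 of the 17 fits, which include those for Lef1 and Tbx3, Slc32a1 was not called higher. In Lef1-positive neurons Gad1 rose by 1.14 ± 0.07 and Gad2 by 0.36 ± 0.06 on the log2 scale (edgeR, adjusted p = 7.73e-21 and 8.3e-06). Slc32a1, the vesicle transporter, had a log2 ratio of -0.20 ± 0.10 there, with an adjusted p of 0.233 by edgeR. In Tbx3-positive neurons Gad1 rose by 0.46, while Slc32a1 had a log2 ratio of -0.42 ± 0.16 and an adjusted p of 0.0872 by edgeR. The difference between the GABA genes within a fit was not tested. The remaining 7 fits, for Foxp1, Nkx2-2, Nkx2-4, Onecut3, Otp, Pou3f2 and Tcf7l2, had neither pattern. Among them Otp had Slc17a6 at a log2 ratio of -0.06 ± 0.07 (edgeR, adjusted p = 0.797), with Gad1 down by 0.84 and Gad2 by 0.64.

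Classic peptide neurons carried sets of members that differed but partly overlapped. Peptide transcripts were spread over all nuclei: Avp (vasopressin) had a UMI in 59.4% of neurons and 57.9% of oligodendrocyte-marker nuclei, Pmch (melanin-concentrating hormone) in 53.0% and 53.1%, Oxt (oxytocin) in 47.8% and 47.0%, and Hcrt (orexin) in 26.6% and 26.6%. A single UMI of these is therefore background. Neurons with 10 or more UMIs of a gene, called rich in it here, were taken instead, a threshold chosen after the data were seen. Their members were compared with the number expected from neurons of the same library in the same of 10 UMI strata. A member is counted as over-represented below when it was in at least 10% of the rich neurons, at 1.5 times the expected number or more, and above it in 4 of 4 libraries. No test was run on these shares, whose intervals are exact 95% binomial intervals over the pooled neurons and cover counting error only.

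The 378 Avp-rich neurons and 171 Oxt-rich neurons shared Sim1, Otp, Pou3f2 and Foxp2. Sim1 was found in 287 of the Avp-rich neurons, against 50.3 expected, which is 75.9% (71.3 to 80.2), and in 126 of the Oxt-rich neurons, against 24.9 expected, which is 73.7% (66.4 to 80.1). Pou3f2 (Brn2), a POU factor needed for these neurons, was in 39.7% and 35.7%, against 18.6 and 8.94 neurons expected for 150 and 61 found. Foxp2 was in 76.5% of Avp-rich and 83.6% of Oxt-rich neurons, and Otp in 17.2% and 25.7%. Ebf3 differed between them and was found in 218 of 378 Avp-rich neurons, 57.7% (52.5 to 62.7), with 23.1 expected, and in 3 of 171 Oxt-rich neurons, with 11.4 expected. The lowest library had Ebf3 in 53.3% of Avp-rich neurons and the highest had it in 3.33% of Oxt-rich neurons.

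Across neurons without the richness rule, Avp averaged 1056 ± 375 CPM in Ebf3-positive neurons, against 285 ± 116 CPM in Ebf3-negative neurons (SD, n = 4 libraries). The log2 ratio was 1.96 ± 0.07 (edgeR, adjusted p = 1.39e-27). Pou3f2-positive neurons had Oxt at 478 and 435 CPM in ImP 3 and ImP 4 and 267 and 396 CPM in vehicle 1 and vehicle 2. In Pou3f2-negative neurons Oxt was at 236 and 314 CPM in ImP 3 and ImP 4 and 107 and 170 CPM in vehicle 1 and vehicle 2, with the positive value higher in each library.

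Trh, the thyrotropin-releasing hormone transcript of the paraventricular nucleus, went with Sim1 and the Onecut factors. Of 28 Trh-rich neurons, 21 had Sim1, 75.0% (55.1 to 89.3), and 16 had Onecut2, 57.1% (37.2 to 75.5), against 4.08 and 3.38 expected. The 28 were unevenly spread, with 2 and 5 in ImP 3 and ImP 4, against 14 and 7 in vehicle 1 and vehicle 2, and over the libraries Sim1 was in 64.3% to 100% of them. Otp and Onecut1 were each in 7, and Foxp2, common among Avp-rich and Oxt-rich neurons, was in 1. In Sim1-positive neurons Trh was at 90.2 and 125 CPM in ImP 3 and ImP 4 and 99.4 and 113 CPM in vehicle 1 and vehicle 2. In Sim1-negative neurons it was at 22.5 and 41.6 CPM in ImP 3 and ImP 4 and 19.4 and 23.3 CPM in vehicle 1 and vehicle 2. The groups did not overlap, and the log2 ratio was 2.08 ± 0.07 (edgeR, adjusted p = 2.71e-25). Sim2, a paralog of Sim1, had a log2 ratio of 2.64 ± 0.12 for Trh, and Trh was found in 41.8% of Sim2-positive neurons, against 9.75% of Sim2-negative neurons and 6.78% of oligodendrocyte-marker nuclei. Trh also rose with Otp by 1.64, Ebf1 by 1.83, Onecut1 by 1.33, Onecut2 by 1.38 and Onecut3 by 1.26 on the log2 scale.

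The 80 Hcrt-rich neurons of the lateral hypothalamus stood apart by Lhx9, a LIM factor known to promote orexin identity. Lhx9 was in 34 of the 80, 42.5% (31.5 to 54.1), against 1.22 expected. Rorb was in 78 of the 80, 97.5% (91.3 to 99.7), against 27.0 expected, and Foxp2 in 56, against 15.4 expected. Ebf1, Ebf3, Onecut2 and Meis2 were in 0 of the 80, with 7.89, 5.96, 10.1 and 5.16 expected. In Lhx9-positive neurons Hcrt was at 594 and 869 CPM in ImP 3 and ImP 4 and 468 and 305 CPM in vehicle 1 and vehicle 2. In Lhx9-negative neurons it was at 111 and 131 CPM in ImP 3 and ImP 4 and 58.4 and 65.0 CPM in vehicle 1 and vehicle 2, a log2 ratio of 2.60 ± 0.09 (edgeR, adjusted p = 1.06e-181). The 111 Pmch-rich neurons, the other classic lateral population, carried Lef1 in 31.5% (23.0 to 41.0), Nkx2-1 in 27.0% (19.0 to 36.3) and Zic1 in 20.7% (13.6 to 29.5), against 5.63, 7.59 and 5.78 neurons expected for 35, 30 and 23 found.

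Hdc, which encodes the enzyme that makes histamine in the tuberomammillary nucleus, stood out for its link to Lef1. It was found in 1.16% of neurons and 0.540% of oligodendrocyte-marker nuclei. Lef1 was in 29 of 32 Hdc-rich neurons, 90.6% (75.0 to 98.0), against 2.12 expected, and Isl1 in 23, 71.9% (53.3 to 86.3), against 5.39 expected. Tcf7l2 was in 18, Tbx3 in 9, Dlx5 in 7 and Barhl2 in 5 of the 32, each above the expected number in 3 of 4 libraries, where ImP 3 had only 3 Hdc-rich neurons. Without ImP 3, 6 members in place of 2 were over-represented. In Lef1-positive neurons Hdc was at 167 and 181 CPM in ImP 3 and ImP 4 and 122 and 134 CPM in vehicle 1 and vehicle 2. In Lef1-negative neurons it was at 3.63 and 3.81 CPM in ImP 3 and ImP 4 and 2.28 and 3.13 CPM in vehicle 1 and vehicle 2. The log2 ratio of 5.58 ± 0.10 (edgeR, adjusted p = 1.28e-51) was the largest of any peptide or enzyme of the fixed list named for any member. Hdc also rose with Tbx3 by 3.70, Isl1 by 3.29, Tcf7l2 by 3.01 and Dlx5 by 2.35 on the log2 scale.

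Sst (somatostatin) and Pomc (pro-opiomelanocortin, of arcuate neurons) had 2 and 3 over-represented members. Otp was in 19 of 63 Sst-rich neurons, 30.2% (19.2 to 43.02), against 2.23 expected, and Isl1 also in 19, against 7.41 expected. In Otp-positive neurons Sst was at 93.2 and 180 CPM in ImP 3 and ImP 4 and 104 and 124 CPM in vehicle 1 and vehicle 2, against 52.7 and 77.8 CPM in ImP 3 and ImP 4 and 36.1 and 47.0 CPM in vehicle 1 and vehicle 2 of Otp-negative neurons. Of the 95 Pomc-rich neurons 52 came from ImP 4, the library with pituitary transcripts, where Pomc is also a hormone precursor. Prox1 was in 33 of the 95, Isl1 in 37 and Tcf7l2 in 21, against 6.71, 11.4 and 7.41 expected, and Tbx3 was in 16, against 1.52 expected, with a lowest library at 0%.

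**Figure D3:**
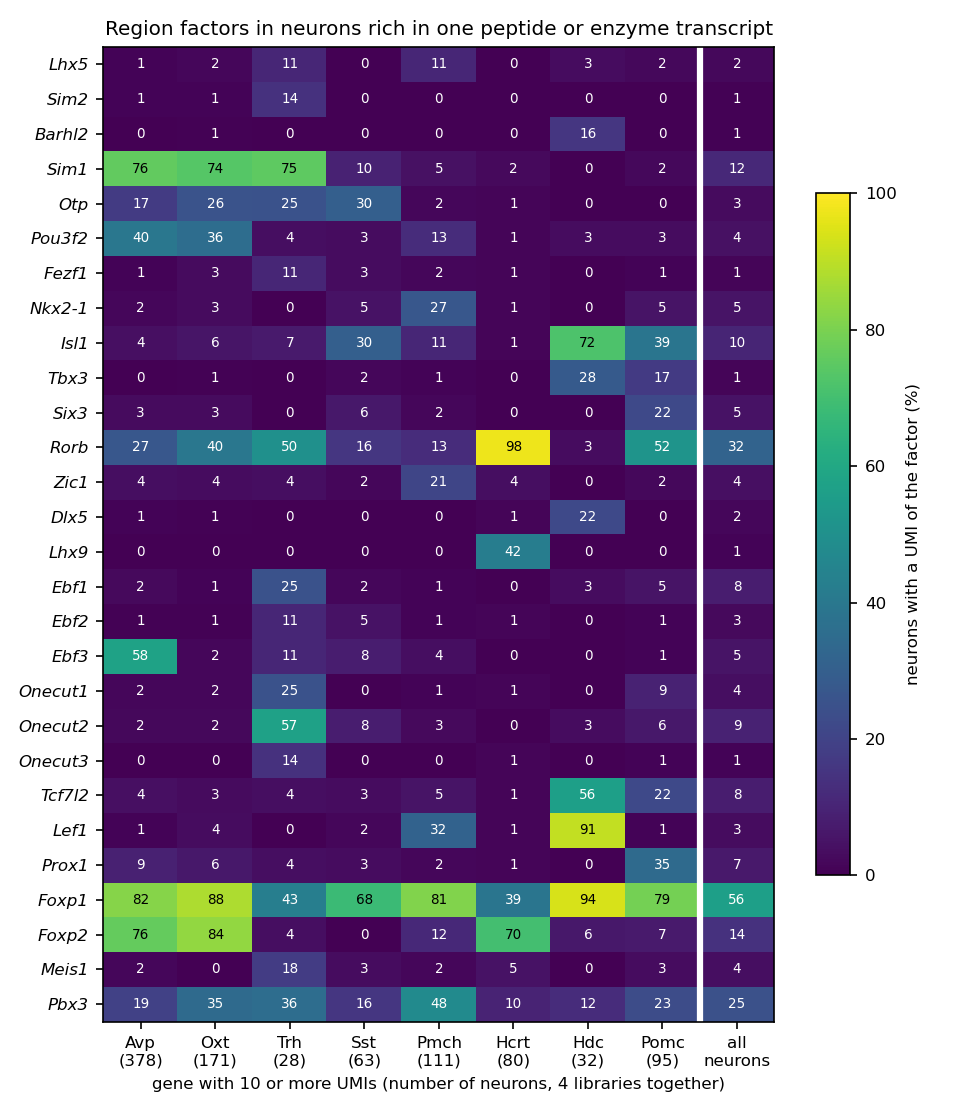
Share of neurons with a UMI of each region factor (rows, factors reaching 10% in a column; number printed in each cell, %) among neurons with 10 or more UMIs of the named gene (columns, number of neurons in brackets, 4 libraries together), beside all neurons (last column, mean of 4 libraries). Sim1 reaches 75.9%, 73.7% and 75.0% of Avp-rich, Oxt-rich and Trh-rich neurons, Rorb 97.5% of Hcrt-rich and Lef1 90.6% of Hdc-rich neurons.

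Other peptides rose with members of the posterior group and of further groups. Tac1 (substance P precursor) had 153 and 207 CPM in Lmx1a-positive neurons of ImP 3 and ImP 4, with 139 and 207 CPM in vehicle 1 and vehicle 2. Lmx1a-negative neurons had 81.7 and 98.7 CPM in ImP 3 and ImP 4 and 55.4 and 71.2 CPM in vehicle 1 and vehicle 2, a log2 ratio of 1.24 ± 0.07 (edgeR, adjusted p = 1.11e-74). Lmx1b and Ebf2 gave 1.36 and 1.15 for the same gene. Cck (cholecystokinin) averaged 40.9 ± 4.65 CPM in Foxb1-positive neurons, against 14.4 ± 2.78 CPM in Foxb1-negative neurons (SD, n = 4 libraries). Vip, a peptide of the suprachiasmatic nucleus, had 49.5 and 81.8 CPM in Lhx1-positive neurons of ImP 3 and ImP 4, with 25.01 and 23.5 CPM in vehicle 1 and vehicle 2. In Lhx1-negative neurons Vip was at 10.4 and 15.6 CPM in ImP 3 and ImP 4 and 4.26 and 9.07 CPM in vehicle 1 and vehicle 2, and the log2 ratio was 2.20 ± 0.13. Lhx1, set in the mammillary and posterior group here, is also required for the coupling of suprachiasmatic neurons. The Gnrh1 rise with Meis1 (log2 ratio 2.63 ± 0.20) was uneven, with 38.5 and 42.2 CPM in Meis1-positive neurons of ImP 3 and ImP 4, against 1.85 and 12.7 CPM in those of vehicle 1 and vehicle 2. Over the 39 fits, 156 of 1209 tests on the peptide list (12.9%) were higher and 399 (33.0%) lower in positive neurons. Among all genes of these fits the shares were 4.08% and 4.78%. The part of neuron depth, and of peptide RNA spread over all nuclei, in these counts was not tested.

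Members were found together in the same neuron in a few strong combinations. Of 990 pairs, 507 had 5 or more expected neurons in every library, where the expected number again came from 10 UMI strata. The number found was at least 2 times that expected in all 4 libraries for 20 pairs and at most 0.5 times for 49, and the median ratio of the 507 was 0.955. Of the 20, 10 were among 43 pairs within a role group and 10 among 464 pairs across groups. These are ratios within shared libraries and carry no test. Counting a factor only at 2 or more UMIs left 5 pairs at 2 times or more and 12 at 0.5 times or less.

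Among the pairs with 5 or more expected neurons in every library, the highest ratio was that of a paralog pair. Of the 20 pairs, 7 were paralogs. Ebf2 and Ebf3 were found together in 469 neurons, with 68.0 expected, at 6.09 to 7.63 times the expected number over the 4 libraries. Ebf1 and Ebf2 were at 3.30 to 5.30 times, Onecut2 and Onecut3 at 3.54 to 3.87 times, Onecut1 and Onecut2 at 3.28 to 3.82 times, Meis1 and Meis2 at 3.42 to 4.19 times, Sim2 and Sim1 at 3.39 to 4.20 times, and Dlx1 and Dlx2 at 2.32 to 2.85 times. Near-identical stretches of paralogs can draw the same reads in counting, and how such reads were counted is not given in the sources used here. The pairs also differ in whether the genes are neighbours: Dlx1 and Dlx2 lie on the same chromosome, as their windows above show. The limit of 5 expected neurons left out pairs of rarer factors, such as Lmx1a and Lmx1b, so these were not ranked. In the fits on all genes, Lmx1b was higher in Lmx1a-positive neurons by 5.02 on the log2 scale. Lmx1a was higher in Lmx1b-positive neurons by 4.34, and Lhx8 in Lhx6-positive neurons by 3.08. For Ebf2 in Ebf3-positive neurons the rise was 3.75, and for Dlx6 in Dlx5-positive neurons 1.62.

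A further 3 combinations joined different families. In the posterior set Lmx1a and Ebf3 were found together in 277 neurons, with 72.1 expected (3.70 to 4.27 times), Lmx1b and Foxp2 were at 2.66 to 3.65 times, and Lmx1a and Foxp2 at 2.40 to 3.17 times. In the paraventricular set Sim1 and Ebf1 were found together in 1016 neurons, with 395 expected (2.24 to 2.94 times), Sim1 and Ebf3 in 750, with 285 expected, Sim1 and Pou3f2 in 546, with 226 expected, and Sim1 and Otp in 435, with 164 expected. The third set held Tcf7l2 and Lef1 at 2.67 to 4.01 times, Tbx3 and Tcf7l2 at 2.63 to 3.54 times, Isl1 and Tbx3 at 2.50 to 3.47 times, and Isl1 and Lef1 at 2.20 to 2.44 times. Those 4 factors are among the 6 given above for Hdc-rich neurons. Sim2 and Onecut2 (2.31 to 3.16 times) and Zic1 and Onecut1 (2.19 to 2.38 times) completed the 20.

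Some members were nearly exclusive. Lmx1a and Sim1, both glutamatergic, shared 22 neurons, with 148 expected, at 0 to 0.206 times over the libraries. Sim1 and Lef1 shared 20, with 183 expected (0.0428 to 0.191 times), Lmx1a and Meis1 shared 5, with 38.0 expected, and Otp and Dlx1 shared 7, with 45.9 expected. Ebf3 was found above the expected number with each of Lmx1a and Sim1, which shared few neurons.

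Some of these pairs were also counted within a transmitter class. Among glutamatergic neurons alone Ebf2 and Ebf3 were at 4.45 times the expected number (240 found, 53.9 expected), and Lmx1a and Sim1 at 0.108 times (14 found, 130 expected). Lmx1a and Ebf3 were at 2.32 times there, Sim1 and Otp at 2.13 times, and Sim1 and Ebf3 at 1.37 times, below the 2.64 times of all neurons. Among GABAergic neurons Tcf7l2 and Lef1 were at 3.84 times (199 found, 51.9 expected), Onecut1 and Onecut2 at 3.75 times, and Meis1 and Meis2 at 3.18 times. Dlx1 and Dlx2 were at 1.66 times there, against 2.58 times in all neurons. Across the 39 fits on all genes, other members were higher in positive neurons in 304 of 1683 tests (18.1%) and lower in 533 (31.7%), against 4.08% and 4.78% of all genes.

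**Figure D4:**
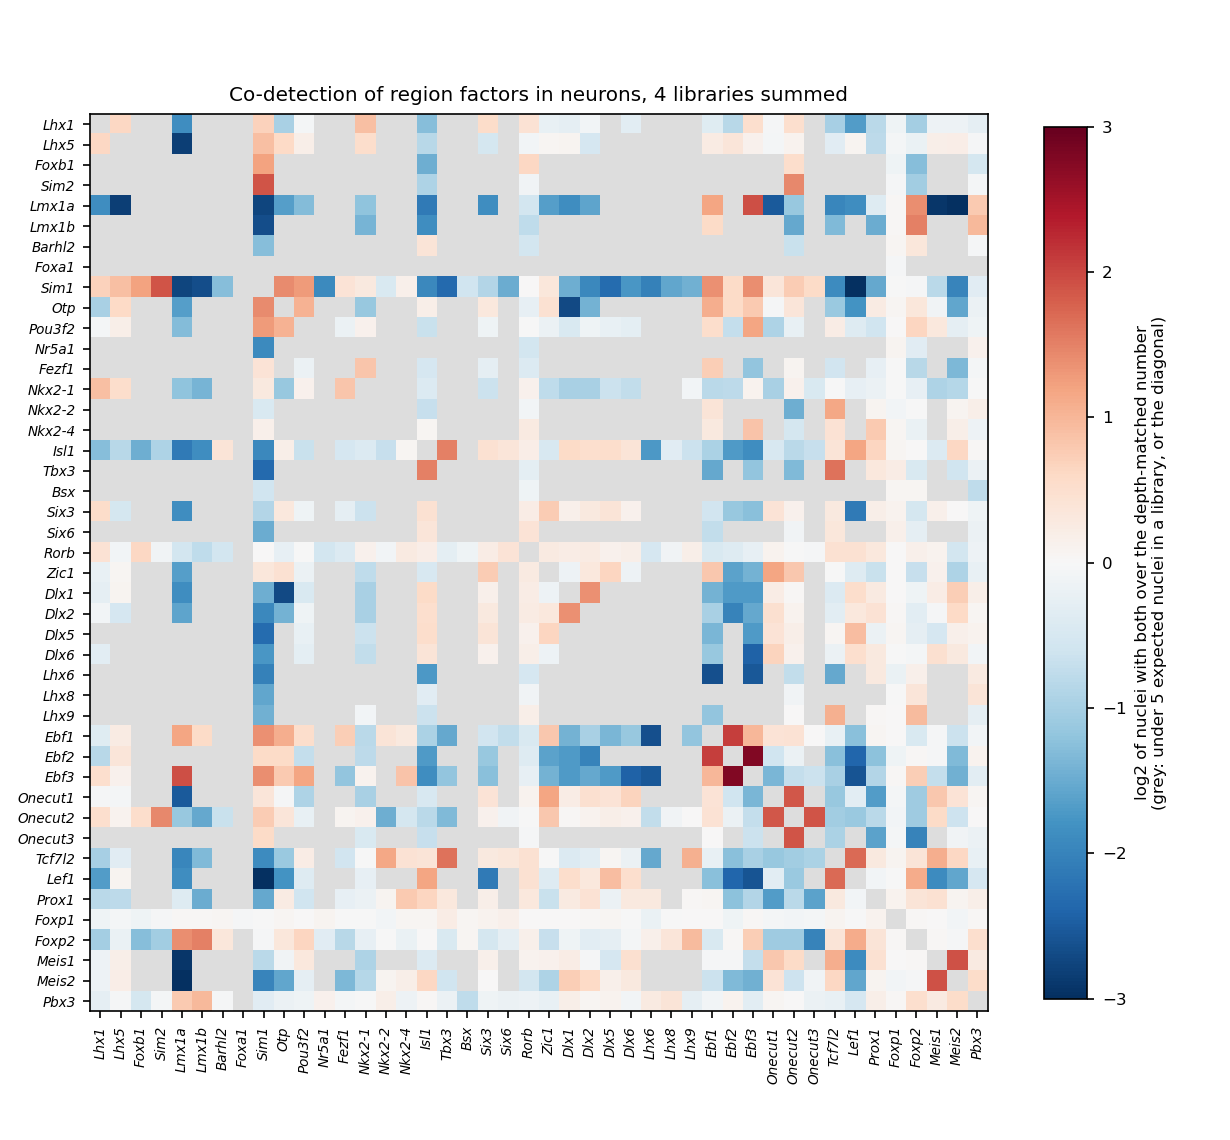
Co-detection of region factors (rows and columns) in neurons of the 4 libraries together; colour is log2 of the neurons found with both over the number expected from 10 UMI strata, and grey marks pairs with under 5 expected neurons in a library. The Ebf, Onecut and Meis paralogs form red blocks, and the Lmx1a and Sim1 cell is blue, at 0.149 times the expected number.

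Levels of the members were also compared between libraries, as a possible gauge of how alike the dissections were. The part of dissection in these levels was not tested. The library names begin with 111 for ImP 3 and vehicle 1 and with 113 for ImP 4 and vehicle 2, so each number holds 1 library of each treatment, and the labels do not say what it marks. In CPM of summed neuron UMIs, 9 members were higher in both 111 libraries than in both 113 libraries (20%, against 23.2% of the 20544 genes tested) and 16 were lower in both (35.6%, against 16.7% of all genes). The 9 were Foxa1, Lmx1a, Lmx1b and Barhl2 of the mammillary and posterior group, with Ebf2, Ebf3, Foxp2, Lhx9 and Meis2. The 16 held both ventromedial members, 4 of 6 tuberal members (Nkx2-1, Nkx2-4, Isl1 and Tbx3) and 3 of 4 anterior members (Six3, Six6 and Rorb). They also held Lhx1 and Lhx5 of the posterior group, which ran against Lmx1a. The rest were Otp, Dlx1, Dlx2, Onecut3 and Foxp1. Some shifts were small, as for Foxp1, with a ratio of 0.959 between the means of the 111 and 113 libraries.

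Among the factors with clear shifts, Lmx1a was at 17.4 and 11.8 CPM in the 111 libraries (ImP 3 and vehicle 1), against 7.62 and 7.18 CPM in the 113 libraries (ImP 4 and vehicle 2), a ratio of 1.97 between the means. Lmx1b was at 4.25 and 3.76 CPM in the 111 libraries, against 2.46 and 2.26 CPM in the 113 libraries, a ratio of 1.70. Nr5a1 ran the other way, at 1.00 and 1.68 CPM in the 111 libraries, against 2.31 and 2.11 CPM in the 113 libraries, a ratio of 0.607. Tbx3 was at 3.11 and 3.10 CPM in the 111 libraries, against 4.96 and 3.88 CPM in the 113 libraries. Each of these 4 genes separated the numbers without overlap. Such a gene cannot also separate the treatments, since each number holds 1 library of each, so the overlap between treatments is no result. In bulk sums of this kind, fewer neurons of a type and less RNA per neuron cannot be told apart. For Lmx1a the share of positive neurons moved too, at 3.75% and 3.43% in the 111 libraries, against 1.85% and 1.80% in the 113 libraries.

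**Figure D5:**
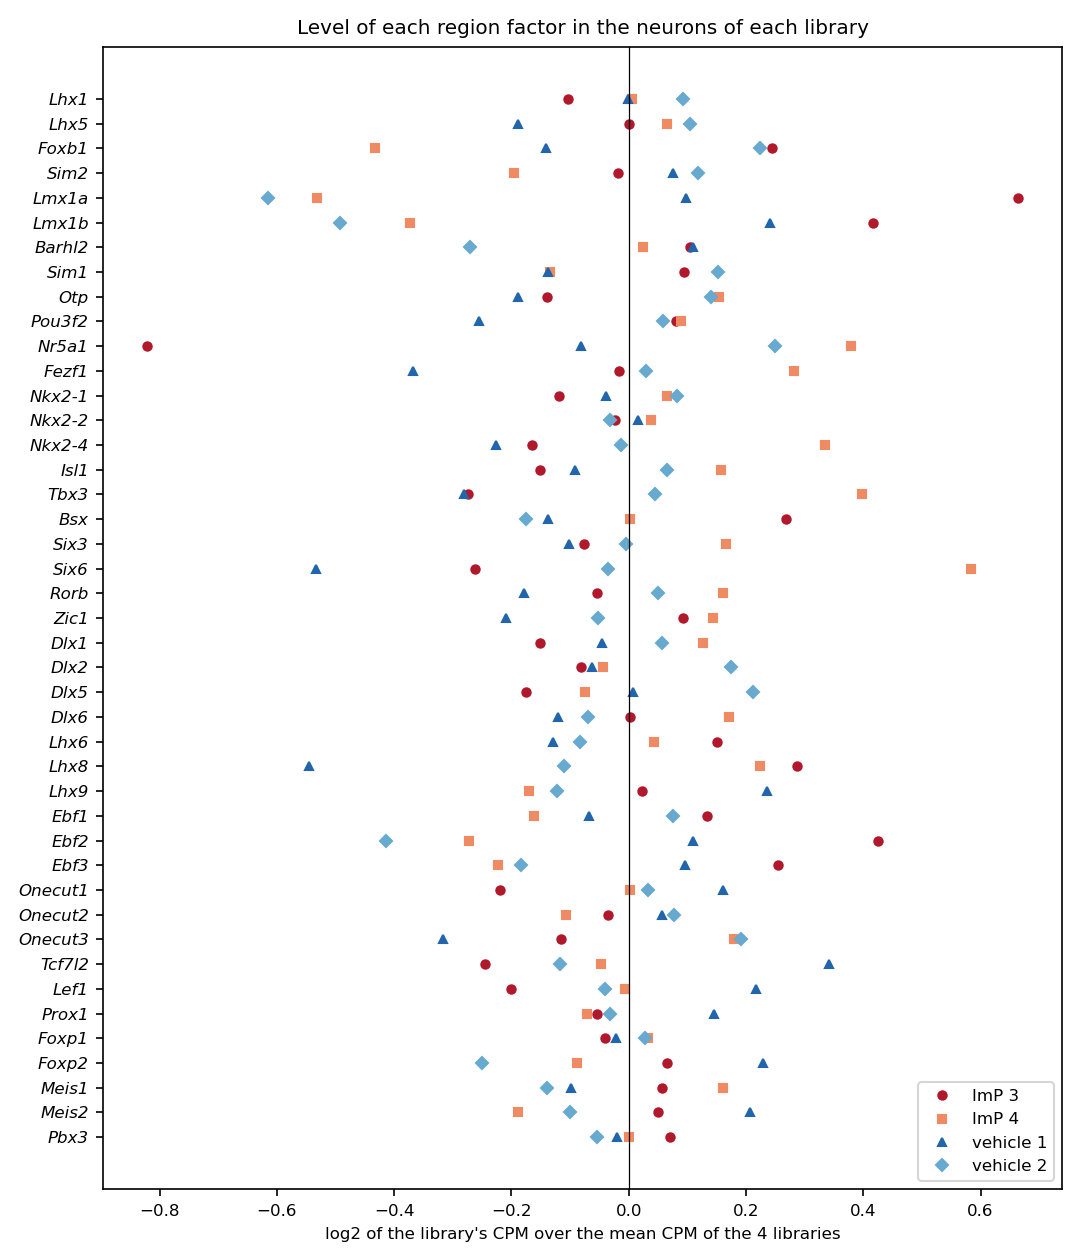
Level of each region factor with 20 or more UMIs in every library (rows), as log2 of the library's CPM over the mean of the 4 libraries (x axis), 1 point per library. For Lmx1a, Lmx1b and Ebf2 the points of ImP 3 and vehicle 1 lie to the right and those of ImP 4 and vehicle 2 to the left.

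Between treatments no member was called. The study asked how ImP acts on the hypothalamus, and for these genes the comparison was ImP 3 and ImP 4 against vehicle 1 and vehicle 2 in neurons, with edgeR's quasi-likelihood test over 20544 genes. At an adjusted p under 0.05, 1 gene passed, Mgp, which was higher in ImP (0.00487% of genes higher and 0% lower), and 0 of the 45 members did. At an unadjusted p under 0.05 there were 2 members and 1541 genes (7.5%). DESeq2 called 292 genes and 0 members. The count of genes rested on single libraries, with 981 passing without ImP 3, 161 without ImP 4, 208 without vehicle 2 and 1 without vehicle 1. Both ImP libraries were above both vehicle libraries for 9 members (20%, against 18.3% of all genes) and below for 5 (11.1%, against 20.6%). With 2 libraries a side, an exact permutation test of a single gene cannot go below p = 0.33. The median log2 ratio of the members was 0.08, and that of all genes -0.01. Among 44 other regional transcription factors, 39 were tested, of which 7 had both ImP libraries higher and 6 both lower, and 0 were called.

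The member with the smallest p was Lhx8, at 3.35 and 3.20 CPM in ImP 3 and ImP 4, against 1.88 and 2.54 CPM in vehicle 1 and vehicle 2. Both ImP values were above both vehicle values, with a log2 ratio of 0.58 ± 0.21 and an adjusted p of 0.593 by edgeR. Meis1, which the glial nuclei hold at 121 CPM or more, was at 13.4 and 14.3 CPM in ImP 3 and ImP 4, against 11.98 and 11.7 CPM in vehicle 1 and vehicle 2. Its log2 ratio was 0.24 ± 0.10 (edgeR, adjusted p = 0.639), and oligodendrocyte-marker nuclei made up 3.16% and 3.75% of the neurons in ImP 3 and ImP 4, against 2.38% and 3.12% in vehicle 1 and vehicle 2. Leaving out nuclei with glial and vascular markers kept 57.8% to 65.8% of the neurons. In that fit 0 members had an unadjusted p under 0.05 by edgeR, against 2 in the main comparison. Over 14 alternative settings the Meis1 log2 ratio was 0.0703 to 0.304. The part of glial nuclei in the Meis1 difference was not tested. Zic1 was at 12.6 and 13.0 CPM in ImP 3 and ImP 4, against 10.2 and 11.3 CPM in vehicle 1 and vehicle 2, with a log2 ratio of 0.26 ± 0.11. Barhl1 was under 0.4 CPM in all 4 libraries. None of the other 4 of the 8 smallest p passed: Onecut2, Tcf7l2 and Onecut1 had log2 ratios of -0.13, -0.26 and -0.19, and Six6 0.50. Six6 was at 2.08 and 3.75 CPM in ImP 3 and ImP 4, against 1.73 and 2.44 CPM in vehicle 1 and vehicle 2, so it was highest in the library with pituitary transcripts. Its log2 ratio was 0.02 without ImP 4, and the gene with the largest called rise in Six6-positive neurons, among those at 10 CPM or more there, was Prl (prolactin), at a log2 ratio of 2.87. The part of pituitary RNA in the Six6 value was not tested. For Tcf7l2 the ImP and vehicle libraries overlapped, at 30.9 and 35.5 CPM in ImP 3 and ImP 4, against 46.5 and 33.8 CPM in vehicle 1 and vehicle 2.

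Sim1 shows how far libraries of a treatment could differ, at 61.4 and 52.4 CPM in ImP 3 and ImP 4, against 52.3 and 63.9 CPM in vehicle 1 and vehicle 2, with a log2 ratio of -0.02 ± 0.12. All 45 members together summed to 1363 and 1356 CPM in ImP 3 and ImP 4, against 1346 and 1334 CPM in vehicle 1 and vehicle 2. Lmx1a had the largest log2 ratio among members above 5 CPM in every library, 0.41 ± 0.39 (edgeR, adjusted p = 0.857). Without ImP 4 its log2 ratio was 0.90 and its adjusted p 0.0306, the only call of a member when a library was left out. In that fit 2 of the 3 libraries, ImP 3 and vehicle 1, carry the number with the higher Lmx1a level.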

How the data were processed

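The authors deposited, per the file headers, whole-number UMI counts per gene and barcode in 1 table for each of the 4 libraries. Per the submitters' processing notes, Cell Ranger 8.0.1, GRCm39 and Seurat 5.0.0 were used, in roles not given in the sources used here. All deposited columns were mapped to a library (0 were not).

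Barcodes with under 500 genes or over 5% mitochondrial UMIs were left out. Nuclei with the highest simulated-doublet scores, 0.8% per 1000 barcodes, were removed, which was 9% to 13.1% of barcodes. Nuclei with 3 or more Snhg11 UMIs were kept as neurons and their UMIs summed per library. edgeR 4.0.16 (R 4.3.3, TMM, filterByExpr at a minimum count of 10, quasi-likelihood test, Benjamini-Hochberg at 0.05) tested ImP against vehicle without a block. It also tested positive against negative neurons with library as block, leaving out the factor itself. The fits were checked on simulated data. Python 3.11.15, numpy 2.4.6, pandas 2.3.3, scipy 1.17.1 and matplotlib 3.10.9 did the rest. DESeq2 1.42.0, other filters, gates, thinning and left-out libraries were alternatives.

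The members and gene lists were chosen with earlier results of these data known. Named genes were the 8 members with the smallest p between treatments, the 20 pairs with the highest lowest-library ratio, the 4 transmitter genes, and examples from the up to 3 listed peptides of each fit with the largest called rise at 10 CPM or more. Members shown beside these illustrate the shares and the library numbers. Promoter windows come from RefSeq on GRCm38.p6, which is another build than that of the counts, so they serve for names and sequence only.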

Additional observations from a re-analysis of the deposited data

How the results depend on the processing

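Leaving out nuclei with 2 or more pituitary-marker UMIs changed the pair and transmitter counts most, by its construction: it left 296 neurons in ImP 4, whose nuclei nearly all held such UMIs. It called 243 genes and 2 members, Lmx1a (log2 0.91) and Ebf2 (log2 0.59), against 1 and 0 in the main comparison. It also gave 8 members with both ImP libraries lower (5 in the main comparison), 13 members above all neurons in glutamatergic share (21), and 0 pairs at 2 times or more (20) and 0 at 0.5 times or less (49). Between treatments, 292 genes were called by DESeq2, 2 without glial and vascular nuclei, 0 without the low-count filter, and 726 with the library-name number as replicate block, which called 0 members and put 8 under an unadjusted p of 0.05 (2 without it). Same-numbered libraries deviated together, with a Pearson correlation of 0.335 across the 20544 genes and 0.631 across the 45 members, a hint from the data and not from the labels. Without 1 library, 1 to 981 genes were called (981 without ImP 3, 161 without ImP 4, 208 without vehicle 2 and 1 without vehicle 1), and 0 to 1 members, the 1 being Lmx1a without ImP 4. Members with both ImP libraries higher then numbered 16 to 21 (9), and those lower 10 to 14, while thinning to 2000 UMIs gave 8 lower. Fewer libraries make such a split easier. At 2 or more UMIs of each factor, 5 pairs were at 2 times or more and 12 at 0.5 times or less. With 3 times in place of 2, 7 pairs were above and 16 below the bounds, and without glia 31 pairs were at 0.5 times or less. With 2 or more UMIs of the factor, Slc17a6 was higher for 9 members (15) and Slc32a1 for 1 (6). There the log2 ratios turned to -0.473 for Lhx5 Pmch, -11.0 for Six6 Vip, -2.30 for Six6 Pomc, -1.97 for Six6 Sst, -0.0732 for Dlx1 Gal, -10.6 for Dlx6 Hdc and -0.182 for Onecut1 Tac1, none past the threshold. The cause was not tested. Of single peptide and transmitter values under the alternatives, 1988 kept direction and side, 172 lost the call and 7 turned. For peptide-rich neurons, a setting of 20 UMIs left 15 Sst-rich and 43 Pomc-rich neurons, with 0 and 1 over-represented members against 2 and 3. It left 1 neuron each for Hdc and Trh, too few for the rule to be met. Leaving out ImP 3 gave 6 for Hdc and 5 for Pomc. The settings for peptide-rich neurons, Snhg11 per 10000 UMIs, and pituitary nuclei without Gh and Prl were chosen after seeing the data. Depth limits the rarest members, such as Barhl1.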
